A study of Mus musculus with 17 samples.

Results

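Messenger RNA levels of 10 mouse genes that hold WNT signalling in check or carry its membrane feedback, Lgr4, Lgr5, Lgr6, Rnf43, Znrf3, Axin1, Axin2, Apc, Gsk3b and Nkd1, were followed in erythroid blasts of mice with a Spi1 transgene. The genes were chosen by name from 26029 genes in the count table of model 1 and 24659 genes in that of model 2. They were proposed with results of these data known, Lgr4 and Rnf43 having been called differentially expressed between the leukaemic and preleukaemic TgSpi1FA−/− cells, so their values in that comparison are a description. The calls and intervals printed for it state what the fit gave, and nothing is supported with them. All 10 genes were listed in the table of model 1 and 9 in that of model 2, where Axin2 was not listed.

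The study compared preleukaemic with leukaemic blasts of 17 mice, 1 poly(A) RNA library per mouse, in 5 groups. Model 1 (strain DBA2JxFVB/N) held 4 preleukaemic TgSpi1FA+/+ mice (preleukemic_445, preleukemic_479, preleukemic_451 and preleukemic_138, genotype TgSpi1Fanca.wt), 3 preleukaemic TgSpi1FA−/− mice (preleukemic_77, preleukemic_224 and preleukemic_40, genotype TgSpi1Fanca.ko) and 3 leukaemic TgSpi1FA−/− mice (leukemic_26, leukemic_28 and leukemic_39). Model 2 (strain DBA2J, genotype TgSpi1Fanca.wt) held 4 preleukaemic mice (preleukemic_633, preleukemic_663, preleukemic_812 and preleukemic_837) and 3 leukaemic mice (leukemic_601, leukemic_606 and leukemic_921), whose leukaemia had arisen after repeated transfusion of blood. All mice, controls included, carried the Spi1 transgene, which encodes the transcription factor PU.1 and blocks erythroid maturation, and all blasts were grown with erythropoietin (EPO). Model 1 had no leukaemic TgSpi1FA+/+ group and model 2 no TgSpi1FA−/− group, and the models also differed in strain, RNA input (400 or 300 ng) and fragmentation time (8 or 2 min), so genotype, route to leukaemia, strain and protocol cannot be told apart between them. Mice preleukemic_77, preleukemic_224 and preleukemic_40 were taken as preleukaemic from their sample titles, although their source names and column names say leukaemic. Mice are named as in those titles, and the plots print the number alone.

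Canonical WNT signalling turns on the receptors Frizzled and LRP and protects β-catenin from a destruction complex built on the scaffolds AXIN1, AXIN2 and APC, in which the kinase GSK3β marks β-catenin for breakdown. The membrane ubiquitin ligases RNF43 and ZNRF3 remove Frizzled and LRP from the cell surface. LGR4, LGR5 and LGR6 are receptors for R-spondins, which draw these ligases away and so strengthen the WNT response. AXIN2, NKD1, LGR5, RNF43 and ZNRF3 are known as feedback genes, switched on by β-catenin in many tissues.

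Promoters are shown for Lgr4 and Rnf43, which had the largest fitted changes of the 6 tested members between the leukaemic and preleukaemic TgSpi1FA−/− cells. Those of Axin2, the textbook β-catenin target, and of Gsk3b are added. Among the promoters searched, that of Gsk3b alone had the core letters that TCF/LEF factors bind. Each run is the 250 bases before a transcription start in RefSeq (GRCm38.p6), 5′ to 3′ on the strand of the gene. RefSeq promoters were at hand for 6 of the 10 genes, not for Lgr5, Znrf3, Axin1 and Apc. Capitals mark CTTTGA, the TCF/LEF core, or GAGGAA, the core bound by PU.1, on either strand, and the motifs do not overlap here.
Lgr4 (chr2:109917397-109917646, strand +): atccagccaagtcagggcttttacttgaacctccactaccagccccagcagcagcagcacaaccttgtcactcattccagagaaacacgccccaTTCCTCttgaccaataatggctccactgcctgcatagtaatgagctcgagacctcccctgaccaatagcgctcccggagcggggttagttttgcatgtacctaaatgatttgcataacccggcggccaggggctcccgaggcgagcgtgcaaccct
Rnf43 (chr11:87662837-87663086, strand +): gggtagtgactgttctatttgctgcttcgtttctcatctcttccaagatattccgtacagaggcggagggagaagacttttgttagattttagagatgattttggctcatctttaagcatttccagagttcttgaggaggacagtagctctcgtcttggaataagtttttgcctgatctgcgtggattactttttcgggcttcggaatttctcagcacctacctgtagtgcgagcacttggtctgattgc
Axin2 (chr11:108920099-108920348, strand +): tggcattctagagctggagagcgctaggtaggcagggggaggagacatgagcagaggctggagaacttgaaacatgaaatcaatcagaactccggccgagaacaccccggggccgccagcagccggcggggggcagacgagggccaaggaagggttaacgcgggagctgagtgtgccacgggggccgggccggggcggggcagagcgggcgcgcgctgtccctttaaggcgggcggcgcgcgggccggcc
Gsk3b (chr16:38088751-38089000, strand +): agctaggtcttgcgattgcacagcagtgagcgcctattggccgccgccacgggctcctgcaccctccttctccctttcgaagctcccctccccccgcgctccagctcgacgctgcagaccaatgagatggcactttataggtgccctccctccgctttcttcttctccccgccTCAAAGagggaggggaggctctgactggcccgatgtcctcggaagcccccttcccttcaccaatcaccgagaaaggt
The core CTTTGA was found 77 bases before the Gsk3b start and in none of the windows of Lgr4, Lgr6, Axin2, Nkd1 or the 2 starts of Rnf43. Of 32851 RefSeq promoter windows of this length, 13.8% hold it. GAGGAA was found 156 bases before the Lgr4 start and in no other window searched for these genes, against 23.3% of all windows. GC content ran from 44.4% before the first Rnf43 start to 69.2% before Axin2. A match or its absence here describes these letters alone.

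Libraries of model 1 held 29964576 to 38217654 counts and those of model 2 37726753 to 40514205. Levels are in CPM, the counts scaled to a common library size after TMM normalization. Fanca, the deleted gene, was between 28.2 and 83.5 CPM in the 4 TgSpi1FA+/+ mice of model 1 and between 0.615 and 2.30 CPM in the 6 TgSpi1FA−/− mice. Leukaemic libraries stood apart among themselves, with Spi1 at 630 CPM in leukemic_26, 220 CPM in leukemic_28 and 3.88 CPM in leukemic_39, against 467 to 1061 CPM in the 7 preleukaemic mice. The summed level of 11 erythroid markers was 5025, 3203 and 2201 CPM in leukemic_26, leukemic_28 and leukemic_39 and 4895 to 5503 CPM in the preleukaemic TgSpi1FA−/− mice, and 8 to 10 of the markers were at 1 CPM or more in each library. preleukemic_445 and preleukemic_479 were far more alike than other pairs of one group (chi-square per degree of freedom 8.53, against 114 to 372), although not within sampling noise, and both were kept. In the further table of counts given below, this pair was at 350, against 393 to 742 for the other pairs. The fits and tests of model 1 count the 2 as independent mice, which their likeness in the first table puts in doubt. Megakaryocyte markers (6 genes) summed to 167 to 252 CPM in the leukaemic TgSpi1FA−/− mice, 31.3 to 40.1 CPM in the preleukaemic TgSpi1FA−/− mice and 45.4 to 196 CPM in the TgSpi1FA+/+ mice. In leukemic_28, nearly all of the 252 CPM was Itga2b (243 CPM). Pf4, Ppbp and Vwf were highest in preleukemic_445, Gp9 in preleukemic_138 and Gp1bb in leukemic_39 (0.786 CPM). In each leukaemic library, 2 to 4 of the 6 markers were at 1 CPM or more. The part of erythroid or megakaryocyte content in the values of Lgr4, Rnf43 and the other genes was not tested. In these cultures, fewer cells of a kind and less RNA per cell cannot be told apart.

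Of the 10 genes, 6 passed the filter on low counts in each model (Lgr4, Rnf43, Znrf3, Axin1, Apc and Gsk3b) and 4 did not (Lgr5, Lgr6, Axin2 and Nkd1). Between genes, levels were compared only per kb of exon. In the preleukaemic TgSpi1FA+/+ cells of model 1, Axin1 was the highest at 31.1 ± 1.73 CPM per kb (SD, n = 4), followed by Gsk3b at 15.2 ± 2.21 CPM per kb and Apc at 5.85 ± 1.26 CPM per kb. The ranges of these 3 genes did not overlap, so the order of the destruction complex held in every library of that group. Rnf43 (4.03 ± 1.74 CPM per kb), Lgr4 (2.25 ± 0.431 CPM per kb) and Znrf3 (2.10 ± 0.428 CPM per kb) came next, and from Apc to Znrf3 each gene's range overlapped with the next in the order. Lgr6 averaged 0.178 CPM per kb, and Lgr5, Axin2 and Nkd1 had no count.

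**Figure D1:**
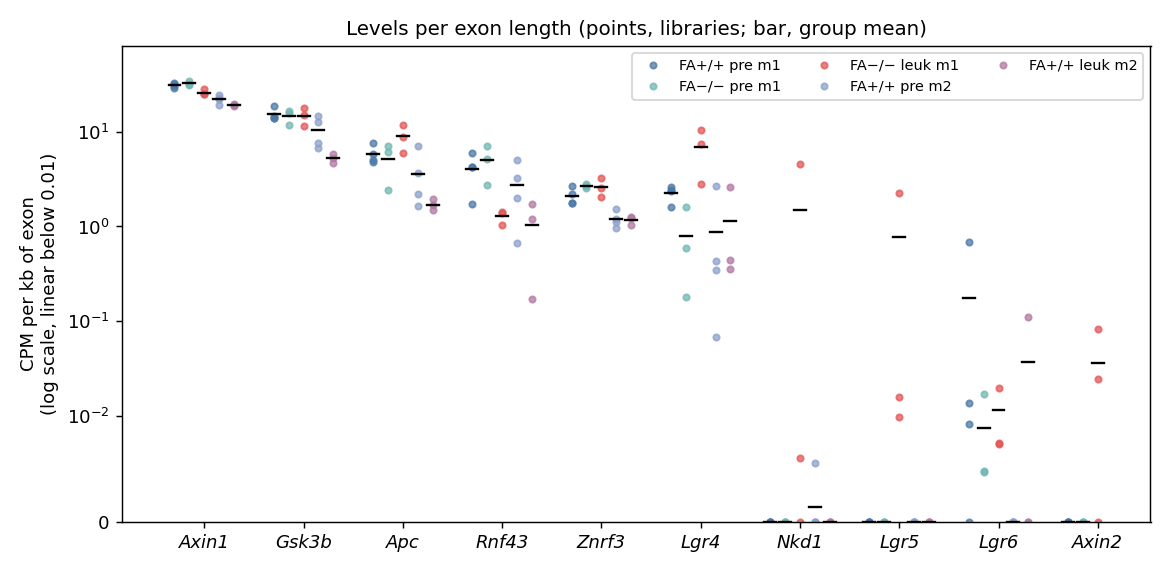
Level of each gene in CPM per kb of exon (vertical axis, log scale that is linear below 0.01) by gene, with 1 point per library and a bar at the mean of each of the 5 groups (pre, preleukaemic; leuk, leukaemic; m1 and m2, models 1 and 2). Axin1 and Gsk3b lie at the top in all groups, and Nkd1, Lgr5, Lgr6 and Axin2 lie at or near 0 apart from single libraries.

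Among the receptors, Lgr4 was the one present in every library. In the preleukaemic TgSpi1FA+/+ mice it stood at 15.3, 14.2, 9.55 and 13.9 CPM in preleukemic_445, preleukemic_479, preleukemic_451 and preleukemic_138. In the preleukaemic TgSpi1FA−/− mice it stood at 3.48, 1.05 and 9.41 CPM in preleukemic_77, preleukemic_224 and preleukemic_40. In the leukaemic TgSpi1FA−/− mice it reached 16.5, 44.0 and 61.0 CPM in leukemic_26, leukemic_28 and leukemic_39. The 3 leukaemic libraries lay above all 7 preleukaemic ones, leukemic_26 by a small margin over preleukemic_445, and the 3 preleukaemic TgSpi1FA−/− libraries lay below the 4 TgSpi1FA+/+ ones, preleukemic_40 by a small margin under preleukemic_451. Of all 13393 genes tested, 38.7% did not overlap between the leukaemic and preleukaemic TgSpi1FA−/− libraries and 25.7% between the leukaemic and the TgSpi1FA+/+ ones. The fitted log2 fold change of Lgr4 from preleukaemic to leukaemic TgSpi1FA−/− cells was 3.12 (SE 0.75), a description as said above. Against the preleukaemic TgSpi1FA+/+ cells it was 1.61 (SE 0.65), with the same leukaemic libraries.

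The genotype comparison in preleukaemic cells asks what the loss of Fanca goes with before leukaemia. It shares the 3 preleukaemic TgSpi1FA−/− libraries with the comparison that the choice of the genes used, and for Lgr4, chosen as lower in those libraries than in the leukaemic ones, a low value here is favoured by that choice and is given as a description. Lgr4 was 1.51 lower on the log2 scale in TgSpi1FA−/− cells (log2 fold change −1.51, 95% interval −3.04 to 0.02), which did not pass (adjusted p = 0.58, edgeR quasi-likelihood test with Benjamini-Hochberg adjustment over all genes). The 2 groups did not overlap. Without preleukemic_224 the log2 fold change was −1.05 and without preleukemic_40 it was −2.55. Of 13393 genes tested, 1 was called (0.00747%) and 8.53% had groups that did not overlap.

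In model 2, Lgr4 stood at 15.8, 2.05, 0.400 and 2.57 CPM in preleukemic_633, preleukemic_663, preleukemic_812 and preleukemic_837 and at 2.10, 2.59 and 15.3 CPM in leukemic_601, leukemic_606 and leukemic_921. In each group 1 library was far above its fellows. The leukaemic range lay within the preleukaemic one, and preleukemic_663 and preleukemic_812 lay below every leukaemic mouse. The log2 fold change was 0.36 (95% interval −2.42 to 3.14, adjusted p = 0.894 by edgeR). Without preleukemic_633 it was 1.99 and without leukemic_921 it was −1.13, so the value rests on those 2 mice. Of 24659 genes, 21 had at least 100 counts in preleukemic_633 and at most 6 in every other library of model 2, where the count for the other mice ran from 4 to 11.

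Lgr5, the stem cell marker of the intestine and a β-catenin target, had no count in the 7 preleukaemic libraries of model 1 and none in the 7 libraries of model 2. It had 6 counts in leukemic_26, 912 counts in leukemic_28 (23.3 CPM) and 4 counts in leukemic_39. The mean of the leukaemic TgSpi1FA−/− group was thus at least 83.2-fold higher than the floor of 3 counts per library in the preleukaemic TgSpi1FA−/− mice, and at least 1.41-fold higher without leukemic_28, the library that decides the value. Lgr6 had 0 to 5 counts in 9 libraries of model 1 and 147 counts (4.71 CPM) in the preleukaemic TgSpi1FA+/+ mouse preleukemic_451. In model 2 it had 27 counts (0.766 CPM) in leukemic_921 and none in the other 6 libraries, so that the leukaemic mean, at least 3.35-fold above the floor, rests on that mouse. Per kb of exon, Lgr4 made up 70.2% of the 3 receptors in preleukemic_451, 76.7% in leukemic_28 and between 91.3% and 100% elsewhere.

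**Figure D2:**
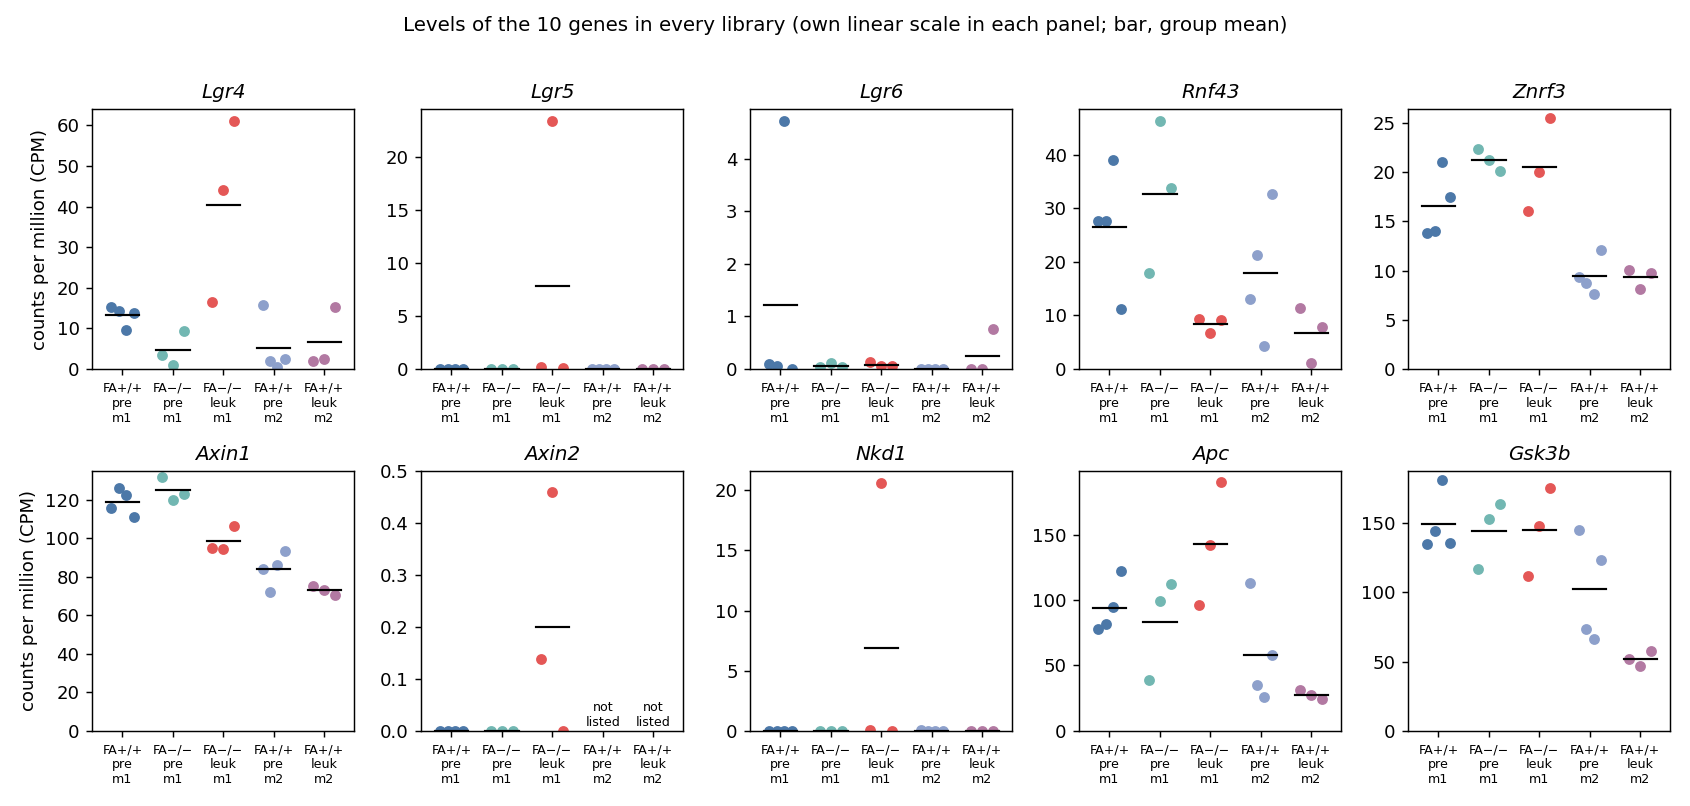
CPM of each of the 10 genes (vertical axis, a linear scale of its own in each panel) in the 5 groups (labels as in the plot per exon length), with 1 point per library and a bar at the group mean. Lgr4 lies above the preleukaemic range of model 1 in the 3 leukaemic TgSpi1FA−/− libraries while Rnf43 lies below that range, and Lgr5 and Nkd1 stand out in 1 library, leukemic_28.

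The ligases took different courses. Rnf43 stood at 27.7, 27.7, 39.1 and 11.3 CPM in the preleukaemic TgSpi1FA+/+ mice preleukemic_445, preleukemic_479, preleukemic_451 and preleukemic_138. It stood at 17.9, 46.3 and 33.9 CPM in the preleukaemic TgSpi1FA−/− mice preleukemic_77, preleukemic_224 and preleukemic_40. In leukemic_26, leukemic_28 and leukemic_39 it was at 9.40, 6.72 and 9.11 CPM, below all 7 preleukaemic libraries, with preleukemic_138 the nearest (shares of all genes that did not overlap as given for Lgr4). The fitted log2 fold change was −1.96 (SE 0.47) against the preleukaemic TgSpi1FA−/− cells and −1.65 (SE 0.45) against the TgSpi1FA+/+ cells, both as descriptions. Znrf3, its paralogue, was at 13.8, 14.1, 21 and 17.5 CPM in the TgSpi1FA+/+ mice, at 22.3, 21.2 and 20.2 CPM in the preleukaemic TgSpi1FA−/− mice and at 16.0, 20.0 and 25.5 CPM in the leukaemic ones. These groups overlapped, and the log2 fold change from preleukaemic to leukaemic TgSpi1FA−/− cells was −0.05 (SE 0.25).

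Between the preleukaemic genotypes, the log2 fold change of Rnf43 was 0.30 (95% interval −0.65 to 1.26) and did not pass (adjusted p = 0.89 by edgeR). Rnf43 was chosen as higher in the preleukaemic TgSpi1FA−/− libraries than in the leukaemic ones. A high value here is favoured by that choice, so the Rnf43 result is a description and nothing is concluded from it. For Znrf3 the log2 fold change was 0.35 (95% interval −0.16 to 0.87), which did not pass (adjusted p = 0.697 by edgeR). In model 2, Rnf43 was at 13.1, 21.3, 4.37 and 32.8 CPM in preleukemic_633, preleukemic_663, preleukemic_812 and preleukemic_837 and at 11.4, 1.12 and 7.83 CPM in leukemic_601, leukemic_606 and leukemic_921. The leukaemic mean was lower, but preleukemic_812 lay under 2 of the 3 leukaemic mice, and the log2 fold change of −1.39 (95% interval −3.43 to 0.64) did not pass (adjusted p = 0.409 by edgeR). Znrf3 lay between 7.60 and 12.1 CPM in all 7 mice of model 2, and its log2 fold change was −0.02 (95% interval −0.76 to 0.72, adjusted p = 0.98 by edgeR).

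Per kb of exon, the level of Lgr4 over the summed level of both ligases was 0.809, 2.10 and 2.24 in the leukaemic TgSpi1FA−/− mice leukemic_26, leukemic_28 and leukemic_39. It was 0.107, 0.0184 and 0.207 in the preleukaemic TgSpi1FA−/− mice preleukemic_77, preleukemic_224 and preleukemic_40 and 0.188 to 0.599 in the TgSpi1FA+/+ mice. The 3 leukaemic libraries had the highest values of model 1, a direction that the choice of Lgr4 and Rnf43 fixes. In model 2 the ratio was 0.843 in preleukemic_633 and 0.0417 to 0.0802 in its 3 fellows. It was 0.118, 0.366 and 1.07 in leukemic_601, leukemic_606 and leukemic_921. The groups overlapped, and the highest value of each was that of 1 mouse, preleukemic_633 and leukemic_921.

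**Figure D3:**
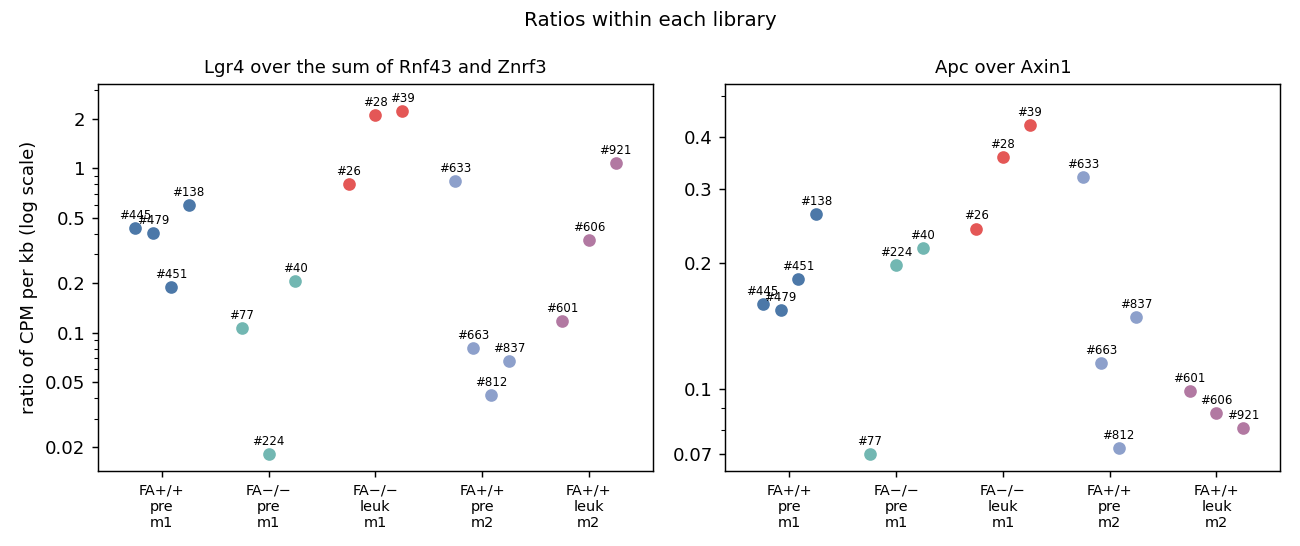
Ratios of CPM per kb of exon within each library (vertical axes, log scale), with 1 labelled point per mouse: Lgr4 over the sum of Rnf43 and Znrf3 (left) and Apc over Axin1 (right) in the 5 groups. On the left, the leukaemic TgSpi1FA−/− mice lie at 0.809 to 2.24, above the other mice of model 1, and preleukemic_633 lies apart from the other preleukaemic mice of model 2 in both panels.

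Of the scaffolds, Axin1 was at 116, 126, 123 and 111 CPM in the preleukaemic TgSpi1FA+/+ mice, at 132, 120 and 123 CPM in the preleukaemic TgSpi1FA−/− mice and at 94.8, 94.3 and 106 CPM in the leukaemic ones. All 3 leukaemic libraries lay below the other 7 (as above, 38.7% and 25.7% of all genes did not overlap), by a small amount. The log2 fold change against the preleukaemic TgSpi1FA−/− cells was −0.34 (SE 0.10). It met neither condition of a call, being under 1.5-fold and having an adjusted p of 0.0538 by edgeR. Between the preleukaemic genotypes the log2 fold change was 0.07 (95% interval −0.14 to 0.28, adjusted p = 0.885 by edgeR). In model 2 it was −0.20 (95% interval −0.57 to 0.16, adjusted p = 0.508 by edgeR), with 72.2 to 93.5 CPM in the preleukaemic and 70.4 to 75 CPM in the leukaemic mice.

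Axin2, the inducible paralogue of Axin1, had no count in the 7 preleukaemic libraries of model 1. It had 5 counts in leukemic_26, 18 counts in leukemic_28 (0.460 CPM) and none in leukemic_39. The leukaemic mean was at least 2.11-fold higher than the floor of 3 counts per library and, without leukemic_28, was under that floor. Nkd1, an inhibitor that binds Dishevelled, had 806 counts (20.6 CPM) in leukemic_28, 1 count in leukemic_26 and none in the other 8 libraries of model 1. Its leukaemic mean was at least 72.8-fold higher than the floor, and under it without leukemic_28. In model 2, Nkd1 had 1 count in preleukemic_633 and none elsewhere. Lgr5 and Nkd1 were thus high in the same mouse, and Axin2 was highest there at a level near detection.

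That mouse was checked against all genes. In leukemic_28, 20 of 26029 genes (0.0768%) had at least 100 counts where every other library of model 1 had at most 6, Lgr5 and Nkd1 among them. The same count was 15 in leukemic_39, 5 in leukemic_26, 4 in preleukemic_224, 2 in preleukemic_40 and in preleukemic_451, and 0 in the other 4 libraries, and the Lgr6 reads of preleukemic_451 were 1 of its 2 genes. The limit of 6 counts equals the Lgr5 count of leukemic_26, so Lgr5 meets it without a margin. The likeness of preleukemic_445 and preleukemic_479 makes a value above 0 in either of them unlikely. The 4 endothelial markers, of which 3 were listed, summed to 23.2 CPM in leukemic_28, nearly all of it Tek (21.4 CPM), with Cdh5 at most 0.521 CPM in any library. The sum was 0.685 CPM in leukemic_39 and at most 7.55 CPM elsewhere in model 1. Stromal markers summed to 6.01 CPM in leukemic_28 and up to 276 CPM in preleukemic_40, nearly all of the latter Col1a2 (273 CPM). The part of such cells in the values of leukemic_28 was not tested.

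Apc, which binds β-catenin and Axin in the complex, was at 77.7, 81.9, 94.7 and 123 CPM in the preleukaemic TgSpi1FA+/+ mice and at 38.8, 99.4 and 113 CPM in the preleukaemic TgSpi1FA−/− mice preleukemic_77, preleukemic_224 and preleukemic_40. It was at 96.4, 143 and 191 CPM in leukemic_26, leukemic_28 and leukemic_39. Mice leukemic_28 and leukemic_39 were above all preleukaemic mice and leukemic_26 was within their range, with a log2 fold change of 0.78 (SE 0.39) against the preleukaemic TgSpi1FA−/− cells. Gsk3b was at 135, 145, 181 and 136 CPM, then at 117, 153 and 164 CPM, then at 112, 148 and 175 CPM in the same order of groups. The 3 groups of Gsk3b overlapped throughout, with a log2 fold change of 0.01 (SE 0.20) against the preleukaemic TgSpi1FA−/− cells. Between the preleukaemic genotypes, the log2 fold change was −0.17 for Apc (95% interval −0.99 to 0.65, adjusted p = 0.936 by edgeR) and −0.05 for Gsk3b (95% interval −0.47 to 0.38, adjusted p = 0.97 by edgeR).

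In model 2 both genes were lower in the leukaemic mice without passing the test. Apc was at 113, 35.0, 26.2 and 58.4 CPM in preleukemic_633, preleukemic_663, preleukemic_812 and preleukemic_837 and at 31.3, 27.0 and 23.9 CPM in leukemic_601, leukemic_606 and leukemic_921. Gsk3b was at 145, 73.7, 66.3 and 124 CPM and then at 52.1, 46.5 and 57.2 CPM. For Gsk3b all 3 leukaemic mice lay below all 4 preleukaemic ones, and for Apc preleukemic_812 lay within the leukaemic range. The log2 fold change of Gsk3b was −0.98 (95% interval −1.69 to −0.26), with an unadjusted p of 0.0137 and an adjusted p of 0.176 by edgeR. Its two-sided exact permutation p was 0.0571, the smallest that 3 mice against 4 allow (the other tested members of model 2 gave 0.171 to 1), and 20.1% of the 12970 genes tested in model 2 also had groups that did not overlap. For Apc the log2 fold change was −1.09 (95% interval −2.23 to 0.06, adjusted p = 0.269 by edgeR) and −0.54 without preleukemic_633. Mice preleukemic_633 and preleukemic_837 were the highest of model 2 for both genes, and preleukemic_633 was also the highest for Lgr4. Mast cell markers summed to 159 to 211 CPM in the leukaemic and 31.2 to 94.9 CPM in the preleukaemic mice of model 2. Erythroid markers summed to 3262 to 5752 CPM in the leukaemic and 5208 to 10209 CPM in the preleukaemic mice. Spi1 was at 103 to 188 CPM in the leukaemic and 215 to 332 CPM in the preleukaemic mice. The part of any of these in the values of Gsk3b and Apc was not tested.

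Counted over the comparisons, 2 of the 6 tested members were called from preleukaemic to leukaemic TgSpi1FA−/− cells, Lgr4 up and Rnf43 down, where 1782 of 13393 genes (13.3%) were called by edgeR (adjusted p below 0.05, change 1.5-fold or more). Nothing is read from that count, since the choice of the genes used this comparison. Without preleukemic_224, leukemic_28 or leukemic_39 none of the members was called. Against the preleukaemic TgSpi1FA+/+ cells edgeR called 0 members and DESeq2 called 1, Rnf43. By edgeR 3 members had an unadjusted p under 0.05 in it, Lgr4 and Rnf43 among them, as had 3643 of 13393 genes. Over all genes edgeR called 7.01% there and DESeq2 called 2245 of 15159, and with 1 mouse left out edgeR called from 53 to 1911 genes. Between the preleukaemic genotypes both tools called 0 members, and none had an unadjusted p under 0.05 by edgeR. There the exact permutation p of the tested members other than Lgr4 and Rnf43 ran from 0.114 to 0.8. In model 2 both tools called 0 members, with Gsk3b the one at an unadjusted p under 0.05 by edgeR; edgeR called 0 of 12970 genes there (2587 had an unadjusted p under 0.05) and DESeq2 called 470.

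**Figure D4:**
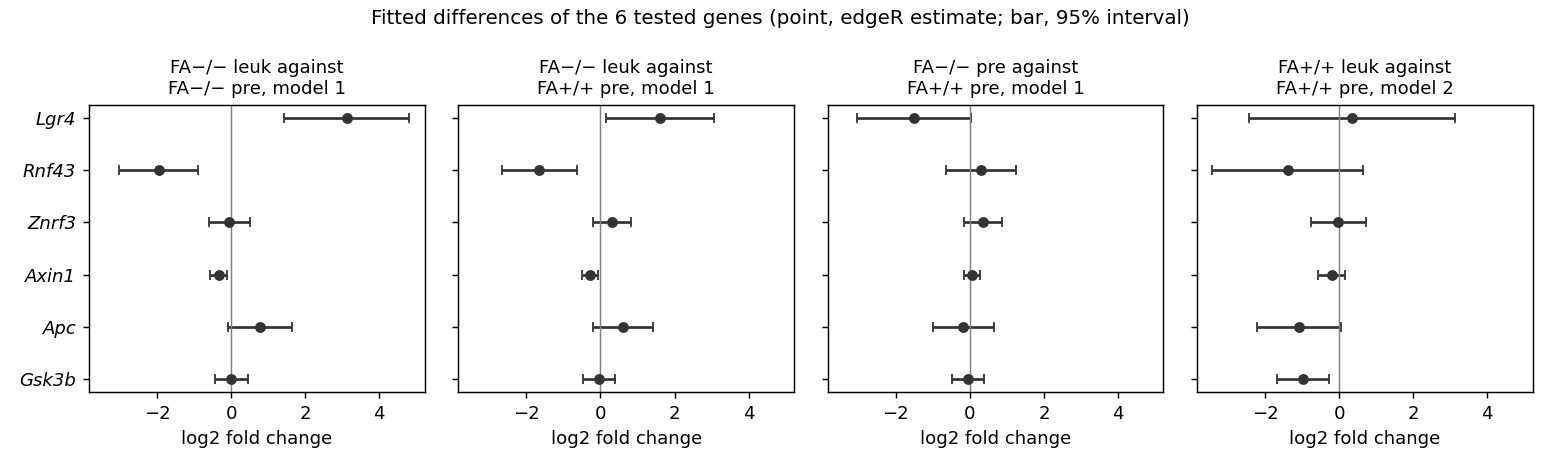
Log2 fold change of the 6 tested genes (points, edgeR estimates; bars, 95% intervals; horizontal axis, log2 fold change; vertical line, no change) in 4 comparisons. Lgr4 (3.12) and Rnf43 (−1.96) lie farthest from 0 on opposite sides between leukaemic and preleukaemic TgSpi1FA−/− cells, and in model 2 the intervals of all genes but Gsk3b include 0.

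The leukaemic change of model 1 less that of model 2 was 1.84 for Apc (SE 0.64), 0.96 for Gsk3b (SE 0.36), 2.72 for Lgr4 (SE 1.49), −0.57 for Rnf43 (SE 0.99), −0.15 for Axin1 (SE 0.16) and −0.05 for Znrf3 (SE 0.36) on the log2 scale. These differences use the leukaemic libraries of model 1 again and are described only. EdgeR called 0 members in that fit and DESeq2 called 1, Apc. By edgeR 2 members had an unadjusted p under 0.05, Apc and Gsk3b, as had 3763 of 14597 genes. Over all genes edgeR called 4.61% of 14597 and DESeq2 called 2037 of 15048, and with 1 mouse left out edgeR called from 1 to 1359 genes. The mean of Rnf43 was lower in the leukaemic group of both models, and that of Apc was higher in model 1 and lower in model 2.

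A further table held other counts for the 7 mice of the preleukaemic TgSpi1FA+/+ and leukaemic TgSpi1FA−/− groups (35497594 to 171572736 counts per library), and what sets it apart from the first is not given in the sources used here. Lgr4 was at 13.4, 28.4 and 33.6 CPM in leukemic_26, leukemic_28 and leukemic_39 there, and at 2.37 to 8.49 CPM in the TgSpi1FA+/+ mice. Rnf43 was at 11.1, 5.79 and 8.44 CPM in the leukaemic and at 20.8 to 50.2 CPM in the preleukaemic mice. Neither gene's groups overlapped in either table. The share of all genes that did not overlap was 25.7% in the first and was not counted in the second. Both hold the same mice, so the second is no independent repeat. Axin1 did not overlap in the first table but did in the second, where the leukaemic mice were at 68.8 to 86.0 CPM and preleukemic_138 at 73.4 CPM, and Apc overlapped in the first but not in the second. Lgr5 was again seen in leukemic_28 (939 counts, 6.47 CPM, with at most 4 counts elsewhere), as was Nkd1 (468 counts, 3.23 CPM, with 11 counts in leukemic_26 and 4 in preleukemic_138), and Lgr6 again in preleukemic_451 (322 counts, with at most 12 elsewhere). Axin2 had 24 counts in leukemic_26, 22 in leukemic_28 and 1 in preleukemic_138. The same mouse could differ between the tables: Rnf43 was at 11.3 CPM in preleukemic_138 in the first and at 39.2 CPM in the second, and Lgr4 at 15.3 and 2.37 CPM in preleukemic_445.

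**Figure D5:**
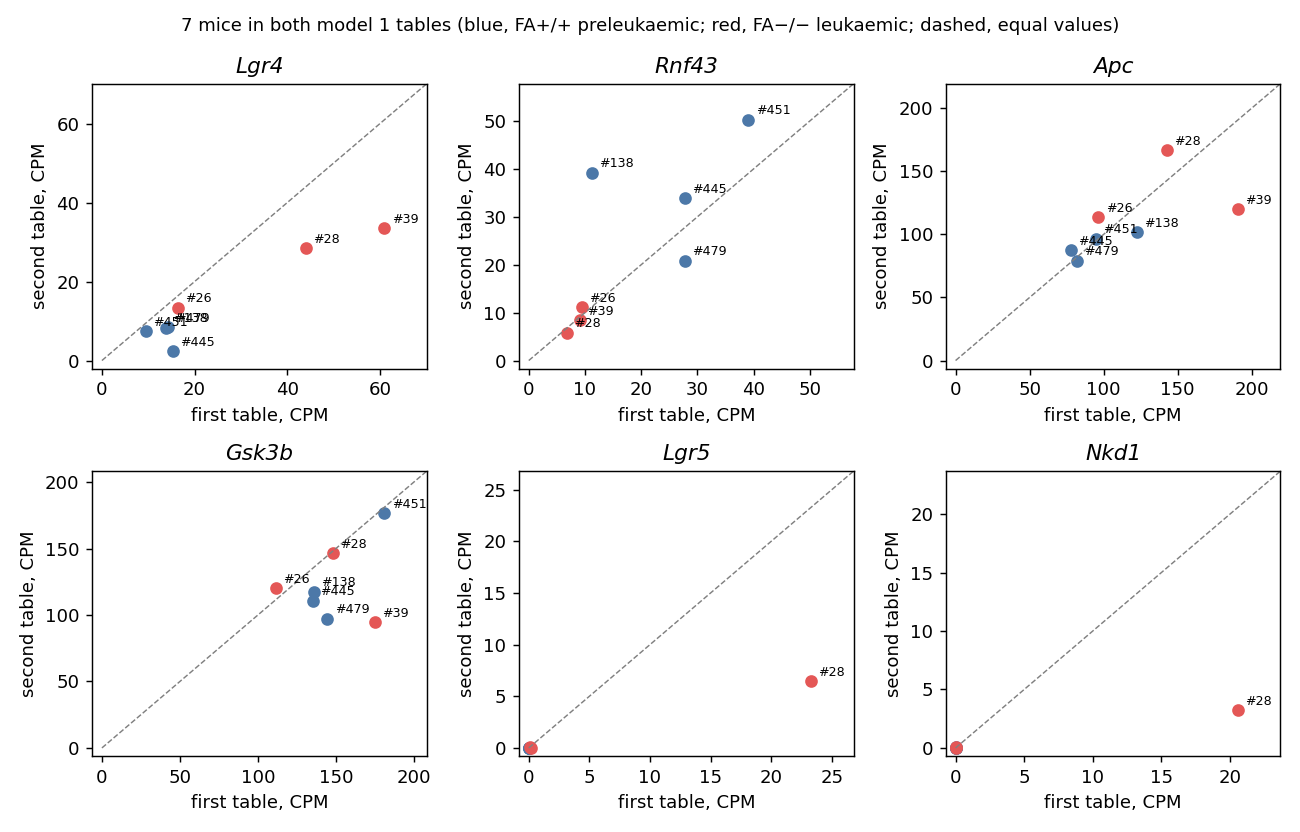
CPM of 6 genes in the first (horizontal axis) and second (vertical axis) table for the 7 mice present in both (blue, preleukaemic TgSpi1FA+/+; red, leukaemic TgSpi1FA−/−; dashed line, equal values). Lgr5 and Nkd1 are above 1 CPM in leukemic_28 alone in both tables, and the leukaemic mice lie above the others for Lgr4 and below them for Rnf43 in both.

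Genes with related roles were counted from lists that were likewise chosen with earlier results known, so their calls are no independent evidence. Of 31 other genes of the destruction complex and of β-catenin breakdown, 29 were tested in model 1, and from preleukaemic to leukaemic TgSpi1FA−/− cells edgeR called 1 up and 1 down, beside 13.3% of all genes, with a median log2 fold change of 0.13 against 0.00 over all genes. Btrc, the F-box protein that hands phosphorylated β-catenin to the ubiquitin machinery, rose from 16.1 ± 2.45 to 51.1 ± 2.11 CPM (SD, n = 3 each, adjusted p = 0.0103), and stayed called without any 1 of the 6 libraries. Tnks, a tankyrase that marks axin for breakdown, fell from 134 ± 13.2 to 82.3 ± 6.24 CPM (adjusted p = 0.0411) and lost its call without any 1 of those libraries. In model 2 none of 28 was called by edgeR (8 had an unadjusted p under 0.05, as had 2587 of all 12970 genes). Btrc was at 22.8 ± 11.4 CPM in 4 preleukaemic and 11.7 ± 2.5 CPM in 3 leukaemic mice there. The difference between the models, which reuses the same leukaemic libraries, was called by edgeR for 3 of 29, beside 4.61% of all genes. These were Btrc (log2 difference 2.61, adjusted p = 0.0285) and the phosphatase subunits Ppp2r1a (0.94, adjusted p = 0.0395) and Ppp2r5a (1.92, adjusted p = 0.0345). None of these calls between the models was made without preleukemic_77, preleukemic_224, preleukemic_40, leukemic_28, leukemic_39, leukemic_601 or leukemic_921, and the same holds for those of Kremen1, Tcf7 and Birc5 given below. Against the preleukaemic TgSpi1FA+/+ cells, edgeR called 2 of the 29 up, beside 7.01% of all genes called either way. These were Btrc (log2 fold change 1.29, adjusted p = 0.0226) and Tnks2, the other tankyrase (0.67, adjusted p = 0.043). Between the preleukaemic genotypes none of the 29 was called (1 had an unadjusted p under 0.05, as had 1159 of all 13393 genes). Without leukemic_28 or leukemic_39, and without preleukemic_445 or preleukemic_479, neither Btrc nor Tnks2 was called against the TgSpi1FA+/+ cells, Btrc was also lost without preleukemic_451 and Tnks2 without preleukemic_138.

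Of 38 other secreted or membrane regulators, 8 were tested in model 1 and 1 was called in the same comparison, beside 13.3% of all genes. Kremen1, a receptor for the WNT inhibitor Dickkopf, rose from 1.51, 0.994 and 1.04 CPM in preleukemic_77, preleukemic_224 and preleukemic_40 to 6.33, 8.66 and 15.7 CPM in leukemic_26, leukemic_28 and leukemic_39 (adjusted p = 0.0291 by edgeR), but was at 1.03 to 5.90 CPM in the TgSpi1FA+/+ mice and was not called against them (adjusted p = 0.13). It was called with leukemic_26 left out, and with no other of those 6 libraries left out. The difference between the models was called for Kremen1 (log2 difference 3.93, adjusted p = 0.0347 by edgeR), beside 4.61% of all genes. The ligands of the LGR receptors were chosen for mention after their values were seen. Rspo3 had 327 counts in leukemic_39 (8.30 CPM), 10 counts in leukemic_28 and none in the other 8 libraries of model 1, Rspo4 had 4 counts in leukemic_28 and none elsewhere in model 1, and Rspo1 and Rspo2 were not listed. In the second table Rspo3 had 196 counts in leukemic_39 and 9 in leukemic_28, and Rspo4 had 121 counts in leukemic_28 and 1 in leukemic_39.

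Of 31 β-catenin targets outside the set, 12 were tested and 2 were called up from preleukaemic to leukaemic TgSpi1FA−/− cells, beside 13.3% of all genes, with a median log2 fold change of 0.49 against 0.00 over all genes. Tcf7, a TCF/LEF factor, had 1, 2 and 8 counts in preleukemic_77, preleukemic_224 and preleukemic_40 and 109, 2676 and 1536 counts in leukemic_26, leukemic_28 and leukemic_39 (2.99, 68.4 and 39 CPM, adjusted p = 0.0174 by edgeR). It had at most 7 counts in the TgSpi1FA+/+ mice and, in model 2, 146 counts in preleukemic_633 and at most 3 elsewhere. Vegfa, an angiogenic factor, rose from 28.6 ± 10.1 to 70.1 ± 16.0 CPM (adjusted p = 0.0267). Neither was called without leukemic_28 or without preleukemic_224, Tcf7 was also lost without preleukemic_77, and Vegfa without preleukemic_40. Both were also called against the preleukaemic TgSpi1FA+/+ cells (adjusted p = 0.0168 for Tcf7 and 0.0496 for Vegfa by edgeR), beside 7.01% of all genes. Neither was called there without preleukemic_445, preleukemic_479 or leukemic_28, and Vegfa also not without preleukemic_451, leukemic_26 or leukemic_39. In model 2 none of the 12 tested targets was called by edgeR (3 had an unadjusted p under 0.05, as had 2587 of all 12970 genes). The difference between the models was called for Tcf7 (adjusted p = 0.0345) and for Birc5, an inhibitor of apoptosis (log2 difference −0.93, adjusted p = 0.0468), by edgeR, beside 4.61% of all genes.

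Neighbouring genes on the chromosome were looked at within 1 Mb of each member. From preleukaemic to leukaemic TgSpi1FA−/− cells, 5 tested neighbours of Lgr4 (chr2:109917647-110014257 in GENCODE M21, GRCm38) had a median log2 fold change of 0.30 and none was called, and 29 neighbours of Rnf43 (chr11:87662722-87735539) had a median of 0.03 with 6 called. Around Lgr6, 20 of 22 neighbours were higher (median 1.33, 10 called), and Lgr6 itself had 1 to 5 counts in each of those 6 libraries. The medians for the other members ran from −0.49 (Lgr5) to 0.29 (Apc), and in model 2 from −0.16 (Nkd1) to 0.49 (Rnf43). In that comparison of model 1, all 8 neighbours of Lgr5 were lower with 0 called. Of 56 neighbours of Axin1, 40 were lower (median −0.20) and 9 were called. Over all genes tested in it, 13.3% were called. Rnf43 shares its position with 1110028F11Rik on the same strand, which had at most 169 counts in a library of model 1.

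Genes with the most similar course over the 10 libraries of model 1 were Anp32a (r = 0.97) and Ralgps2 (r = 0.97) for Lgr4 and Zcchc2 (r = 0.98) and Ubap1 (r = 0.97) for Rnf43, by Pearson's r of log2(CPM + 0.5). In the 7 libraries of model 2 the same pairs gave r = −0.19, 0.13, 0.84 and 0.17. For Gsk3b they were Tnrc6b (0.96 in model 1 and 0.87 in model 2) and Fam199x (0.95 and −0.14), for Apc Pias2 (0.97 and 0.54) and Commd1 (0.95 and −0.68), for Axin1 Pcca (0.97 and −0.22) and Mllt10 (0.96 and 0.71), and for Znrf3 Cebpg (0.97 and 0.39) and Agk (0.96 and −0.09). The libraries share groups, so these values describe likeness and carry no test. Zcchc2 and Tnrc6b were the pairs that stayed above 0.8 in both models.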

How the data were processed

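Poly(A) RNA of 17 mice was sequenced from stranded libraries, 1 per mouse. The authors deposited raw read counts per Ensembl gene, with no normalization. The submitters' processing notes name bcl2fastq 2.17.1.14, STAR 2.5.3a, HTSeq 0.6.1p1 and the builds mm10 and GRCm38, without roles. Whether counting used the strand is not given in the sources used here, so reads of overlapping genes may be shared. A deposited copy of the model 2 table was not used.

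Counts were fitted with edgeR 4.0.16 (R 4.3.3): filterByExpr, TMM, glmQLFit and glmQLFTest, with Benjamini-Hochberg adjustment over all genes tested. Each model had its own fit (3 groups in model 1, 2 in model 2), and both were fitted together for the difference between models. A call asked for an adjusted p below 0.05 together with a change of 1.5-fold or more. The code was tested on simulated data. Single values were compared by two-sided exact permutation tests (scipy 1.17.1) of log2(CPM + 0.1), 12 tests in 2 comparisons. Those of Lgr4 and Rnf43 between the preleukaemic genotypes are not used. Groups with at most 3 counts in each library were set to that floor, which covers counting error only. The p-values measure the spread between mice, with preleukemic_445 and preleukemic_479 counted as 2 mice. Positions and exon lengths (union of exons) came from GENCODE M21. The named genes were the 10 members, the genes of 3 role lists that were called in any comparison, and, for each tested member, the 2 genes with the most similar course. The members and lists were chosen with earlier results of these data known. Alternatives were DESeq2 1.42.0 (size factors and Wald test), other filters on low counts, only the compared groups, the second table and leaving out each mouse.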

Additional observations from a re-analysis of the deposited data

Results flagged for a closer look

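Within the groups of 4 mice, 14 sets of values were examined and 3 held 1 mouse far from the others by Dixon's test. Its rate of about 1 flag in 20 by chance holds for normally distributed values. Several sets here are counts at or near 0, so that rate is no measure for them. Lgr6 was at 4.71 CPM in preleukemic_451, against at most 0.0936 CPM in the other preleukaemic TgSpi1FA+/+ mice of model 1. Lgr4 was at 15.8 CPM in preleukemic_633, against at most 2.57 CPM in the other preleukaemic mice of model 2. Nkd1 was at 0.0252 CPM in preleukemic_633, which is 1 count, with none in the other 3 mice, a pattern that the test always flags. Groups of 3 mice, among them the leukaemic group with leukemic_28, were not examined in this way.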

How the results depend on the processing

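The count of members called from preleukaemic to leukaemic TgSpi1FA−/− cells, 2 as reported, was 1 (Rnf43) when only the 2 compared groups were fitted and 0 to 2 when 1 mouse was left out: 0 without preleukemic_224, leukemic_28 or leukemic_39, 1 without preleukemic_77 (Rnf43) or preleukemic_40 (Lgr4), and 2 without leukemic_26. The directions of Lgr4 and Rnf43 held in all 11 alternatives of that comparison. Against the preleukaemic TgSpi1FA+/+ cells the count, 0 as reported, was 1 (Rnf43) by the DESeq2 Wald test and 0 to 1 with 1 mouse left out (1 without preleukemic_138). For the difference between the models it was 1 (Apc) by the DESeq2 Wald test and 0 to 2 with 1 mouse left out (Apc and Gsk3b without preleukemic_812). It was 0 in all 13 alternatives between the preleukaemic genotypes and in all 11 of model 2. Signs turned for small values: between the preleukaemic genotypes, the log2 fold change of Gsk3b was 0.05 without preleukemic_451 and 0.080 without preleukemic_77, that of Apc was 0.16 without preleukemic_77 and that of Rnf43 was −0.043 without preleukemic_224. With 1 mouse left out they ran from −0.15 to 0.080 for Gsk3b, from −0.45 to 0.16 for Apc and from −0.043 to 0.59 for Rnf43. In model 2, that of Znrf3 was 0.019 with a filter of 1 CPM in 3 libraries, 0.12 without preleukemic_837 and 0.07 without leukemic_606, and that of Lgr4 was −1.13 without leukemic_921, with ranges over 1 mouse left out of −0.082 to 0.12 for Znrf3 and −1.13 to 1.99 for Lgr4. Signs also turned with 1 mouse left out from leukaemic against preleukaemic TgSpi1FA−/− cells for Znrf3 (−0.22 to 0.11) and Gsk3b (−0.13 to 0.17), against the TgSpi1FA+/+ cells for Gsk3b (−0.18 to 0.11), and for the difference between the models for Znrf3 (−0.23 to 0.10, and 0.011 by DESeq2) and Rnf43 (−1.09 to 0.0035). The cause was not tested. Calls in the lists of other complex genes, of other regulators and of targets ran from 1 to 4, 0 to 2 and 0 to 5 over the alternatives between leukaemic and preleukaemic TgSpi1FA−/− cells, from 0 to 2, 0 to 1 and 0 to 5 against the TgSpi1FA+/+ cells (0 in each with preleukemic_445 and preleukemic_479 averaged), and from 0 to 8, 0 to 2 and 0 to 4 for the difference between the models. Over all genes, the calls between leukaemic and preleukaemic TgSpi1FA−/− cells numbered 1782, 3099 by DESeq2 and 414 to 2319 with 1 mouse left out. DESeq2 called 256 genes between the preleukaemic genotypes (1 by edgeR), 2245 (939 by edgeR) between the leukaemic TgSpi1FA−/− and the preleukaemic TgSpi1FA+/+ cells and 470 in model 2 (0 by edgeR). No paired analysis was possible because no mouse number occurs in 2 groups. Genes with few counts (Lgr5, Lgr6, Axin2 and Nkd1) allow no fold change beyond a bound at this depth.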
